A study of Homo sapiens with 2 samples.

Results

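The 45 genes described here are zinc finger genes of 2 clusters on the long arm of human chromosome 19, 20 at 19q13.31 and 25 at 19q13.43, among 33538 genes measured. They were chosen by name and by their place in these clusters, and all 45 were listed for both libraries. The measurements came from HCT116, a human colon cancer cell line, in which decitabine (DAC), a cytidine analog that is built into DNA and traps DNA methyltransferases, was compared with mock treatment. Each addition brought DAC to 0.5 μM. The first was made on day 1 and the second on day 3, a medium change on day 5 ended the exposure, and cells were collected on day 7. Mock-treated cells belonged to the same line, and 1 library of single cells was made from each condition. With 1 library per condition there was no replicate, so no p-value is given, and every interval is at the 95% level and covers counting error only. Differences between the libraries and differences between the treatments cannot be told apart.

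Most genes of these clusters encode KRAB zinc finger proteins, which bind DNA through arrays of C2H2 zinc fingers and recruit the corepressor TRIM28 through the KRAB domain. TRIM28 in turn brings the histone methyltransferase SETDB1 and heterochromatin protein 1, and many KRAB zinc finger proteins silence transposable elements in this way. The genes arose by tandem duplication, so neighbors resemble each other in sequence. Promoters of several zinc finger genes of chromosome 19, among them ZNF154 and ZNF671, are known to be methylated in many tumors. DNA methylation is copied to new strands by DNMT1, with the help of UHRF1, when a cell divides.

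The counts were unique molecular identifiers (UMIs), each standing for 1 captured transcript molecule read near its poly(A) tail. In the mock-treated library 49911689 UMIs were counted over 1783 cells, at a median depth of 27899 per cell. The DAC-treated library reached 59046165 over 1751 cells, at a median depth of 35340. A total of 12 cell barcodes occurred in both libraries. Of 8 epithelial markers, all were detected in both libraries, with KRT18 in 94.8% of mock-treated cells and 98.7% of DAC-treated cells. Of these 8, CLDN4, CLDN7, and ELF3 were at a CPM (UMIs normalized by library total) at or below 0.5 of the mock-treated level after DAC. Summed CPM of 6 leukocyte markers was 6.65 and 10.3 in the mock-treated and DAC-treated libraries, that of 6 fibroblast markers 10.9 and 19.95, and that of 4 endothelial markers 0.2204 and 1.95. PTPRC, CD3E, COL1A2, DCN, LUM, PECAM1, and CDH5 had 0 UMIs in mock-treated cells, and after DAC they had from 5 UMIs (LUM and CDH5) to 46 (PECAM1). By CPM, 6 of 6 leukocyte, 5 of 6 fibroblast, and 3 of 4 endothelial markers were higher after DAC. COL3A1, with 5 UMIs in each library, and KDR, with 5 and 2, were lower. The part of these genes in the values that follow was not tested.

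The members differed widely before any treatment. A member was called silent when fewer than 1% of mock-treated cells had a UMI of it, active when 5% or more did, and low in between. On this scale, 17 members were silent, 12 were low, and 16 were active. At 19q13.31 there were 6 silent, 5 low, and 9 active members over chr19:43827321-44500524 (hg38). At 19q13.43 there were 11 silent, 7 low, and 7 active members over chr19:56507850-58277495. Counting only members, 15 of 17 silent members had another silent member as a direct neighbor, and the 17 formed 8 runs, 4 in each cluster. Since many members were silent, some would be neighbors in any order, and the number for a random order was not computed. The run of most members, ZNF418, ZNF256, ZNF606, and ZNF135 at 19q13.43, had a low member on either side.

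**Figure D1:**
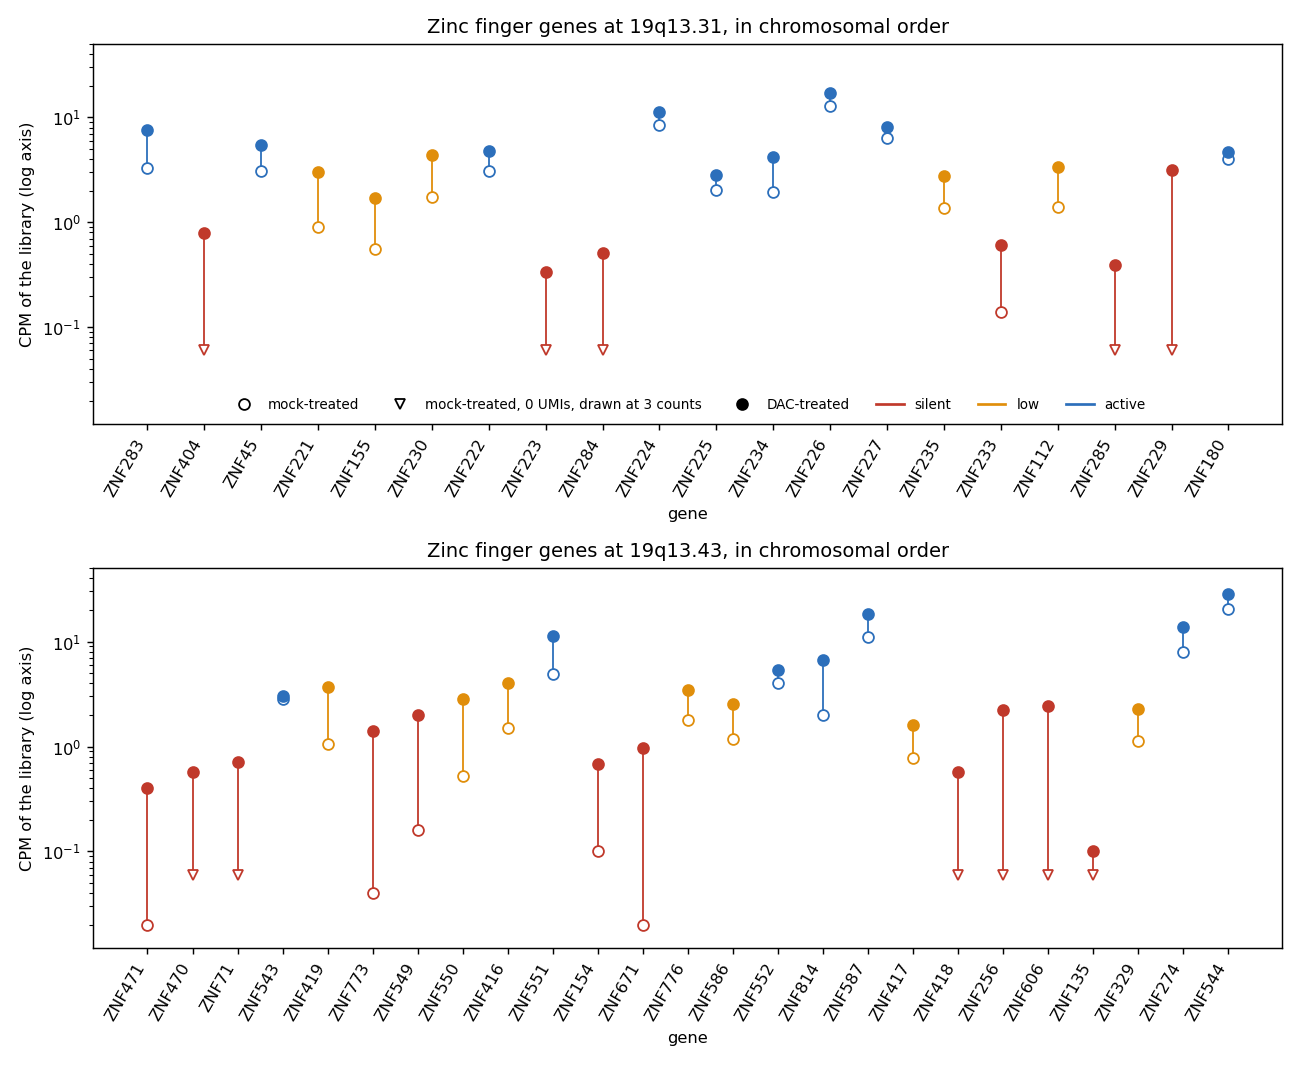
CPM of each member on a log axis, in chromosomal order within each cluster, with open symbols for the mock-treated library and filled symbols for the DAC-treated library. Triangles mark members with 0 UMIs in mock-treated cells, drawn at the CPM of 3 counts. The filled symbol is above the open symbol for all 45 members, and the longest lines belong to silent members such as ZNF229, ZNF606, and ZNF256.

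Neighbors of unlike state could be compared in sequence. Promoters from RefSeq (GRCh38.p14) matched 38 of the 45 members, and those of ZNF155, ZNF221, ZNF223, ZNF233, ZNF417, ZNF471, and ZNF552 were not matched. The 250 bases before the start site are shown 5′ to 3′ on the strand of the gene, with CpG sites, the targets of DNA methylation, in capitals. ZNF229 (silent, chr19:44448579-44448828, minus strand) and ZNF180 (active, chr19:44500523-44500772, minus strand) are neighbors, as are ZNF284 (silent, chr19:44071909-44072158, plus strand) and ZNF224 (active, chr19:44094111-44094360, plus strand). ZNF256 (silent, chr19:57947707-57947956, minus strand) and ZNF587 (active, chr19:57849609-57849858, plus strand) stand for 19q13.43.
ZNF229: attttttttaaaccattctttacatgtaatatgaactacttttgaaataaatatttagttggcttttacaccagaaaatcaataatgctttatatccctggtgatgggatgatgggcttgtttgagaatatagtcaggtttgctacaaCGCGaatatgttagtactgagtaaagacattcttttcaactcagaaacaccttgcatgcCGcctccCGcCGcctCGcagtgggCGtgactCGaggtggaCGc
ZNF180: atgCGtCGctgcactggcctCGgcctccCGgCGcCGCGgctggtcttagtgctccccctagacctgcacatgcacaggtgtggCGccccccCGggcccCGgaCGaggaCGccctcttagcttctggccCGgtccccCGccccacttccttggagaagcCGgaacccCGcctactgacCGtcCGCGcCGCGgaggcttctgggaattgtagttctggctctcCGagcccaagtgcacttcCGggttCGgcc
ZNF284: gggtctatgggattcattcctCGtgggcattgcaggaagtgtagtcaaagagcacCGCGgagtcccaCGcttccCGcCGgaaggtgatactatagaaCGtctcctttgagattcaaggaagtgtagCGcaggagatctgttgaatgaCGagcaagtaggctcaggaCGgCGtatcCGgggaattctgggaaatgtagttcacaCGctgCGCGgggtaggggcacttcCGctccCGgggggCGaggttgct
ZNF224: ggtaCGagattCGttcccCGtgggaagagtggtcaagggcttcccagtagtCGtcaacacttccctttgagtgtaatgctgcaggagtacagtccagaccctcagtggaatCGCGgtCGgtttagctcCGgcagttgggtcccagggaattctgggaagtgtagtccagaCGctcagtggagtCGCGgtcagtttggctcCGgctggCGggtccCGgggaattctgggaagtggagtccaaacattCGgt
ZNF256: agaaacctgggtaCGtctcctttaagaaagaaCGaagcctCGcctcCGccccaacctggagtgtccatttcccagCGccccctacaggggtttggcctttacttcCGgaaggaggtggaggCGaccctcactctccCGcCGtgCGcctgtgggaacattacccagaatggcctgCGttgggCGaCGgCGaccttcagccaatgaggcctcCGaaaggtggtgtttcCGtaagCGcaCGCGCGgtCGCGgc
ZNF587: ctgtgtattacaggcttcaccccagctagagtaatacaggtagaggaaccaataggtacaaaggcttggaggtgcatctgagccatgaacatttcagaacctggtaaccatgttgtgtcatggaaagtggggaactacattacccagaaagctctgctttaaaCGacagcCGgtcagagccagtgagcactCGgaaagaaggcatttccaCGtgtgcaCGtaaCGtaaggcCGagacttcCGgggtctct
The silent promoters shown held 9, 18, and 22 CpG sites for ZNF229, ZNF284, and ZNF256, and the active ones held 24, 15, and 8 for ZNF180, ZNF224, and ZNF587. Neither state had more CpG sites throughout. Over 14 silent members the median was 15.5 sites with a range from 1 to 27, over 9 low members it was 15, and over 15 active members it was 14 with a range from 8 to 26. The median of 430 zinc finger promoters was 17 and that of all 34943 promoters was 11. For ZNF404, which had 1 site, the start site used lay 17421 bases from the annotated 5′ end, and 6 of the 38 members had a start site more than 50 bases away from it. The letters CCGGAAG, the core of ETS family sites, were searched on both strands and occurred in 6 of 14 silent members and 7 of 15 active members. They occurred in 44.7% of the 38 members, in 29.8% of zinc finger promoters, and in 8.48% of all promoters. A match of letters is a description and not a bound site.

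ZNF229 was the member whose methylation the study measured by PCR after bisulfite treatment, and its primers for methylated DNA are shown with CpG positions in capitals.
ZNF229 forward: tggaCGCGtatttaCGatattatc
ZNF229 reverse: CGaaaaCGaaaataatCGactCG
After conversion of the genome sequence in silico, these primers bounded a stretch of 102 bases at chr19:44448484-44448585, from 7 bases before to 94 bases after the start site of the gene. It held 11 CpG sites, of which 3 lay under the forward and 4 under the reverse primer. Methylation itself was not analysed here.

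ZNF229 was also the silent member found in the largest share of DAC-treated cells. It had 0 UMIs in 1783 mock-treated cells, which allows up to 0.168% of cells with a captured UMI at 3 counts (0.207% by the exact interval) and does not limit the share of cells that express the gene. After DAC it had 184 UMIs, in 145 of 1751 cells, a share of 8.28% (7.03% to 9.67%). Since a CPM ratio cannot be formed with 0, the mock-treated level was set to 3 counts over the library. The lower limit of the exact interval of the ratio put ZNF229 at least 41.7-fold higher after DAC. This limit uses the count of 0 itself and not the 3 counts. ZNF606, also at 0 UMIs in mock-treated cells, had 143 UMIs in 123 DAC-treated cells (7.02%) and was at least 32.3-fold higher. ZNF256 went from 0 UMIs to 132 UMIs in 113 cells (6.45%), at least 29.8-fold higher. When 10000 UMIs were drawn per cell, the lower limits on the log2 scale were 3.14 for ZNF229 and 2.87 for ZNF256 and ZNF606. These limits are lower because fewer DAC-treated UMIs were left to set against 0. The 3 genes were undetected in the mock-treated library and had CPM values of 3.12, 2.42, and 2.24 in the DAC-treated library, near those of low members such as ZNF221 at 3.01.

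A silent member was called returned when 1% or more of DAC-treated cells had a UMI of it and its CPM ratio of DAC to mock was 4 or more, with 0 again set to 3 counts. By this rule, 16 of 17 silent members returned, all 6 at 19q13.31 and 10 of 11 at 19q13.43. Of all silent genes with a UMI in either library, 15.9% returned, or 1764 of 11099. Because a silent member could be counted only through its DAC-treated level, the direction was fixed by the rule, and only the share can be read against that of other genes. The exception was ZNF135, at 0 UMIs in the mock-treated library and at 6 UMIs in 6 DAC-treated cells (0.343%). It sat at the end of the run that held ZNF256 and ZNF606.

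Of the 16 returned members, 10 had 0 UMIs in mock-treated cells. Beside ZNF229, ZNF606, and ZNF256, these were ZNF404 with 47 UMIs in DAC-treated cells, ZNF71 with 42, ZNF418 and ZNF470 with 34 each, ZNF284 with 30, ZNF285 with 23, and ZNF223 with 20. Their shares of DAC-treated cells ran from 1.14% for ZNF223 to 2.63% for ZNF404, and they were at least 4.17-fold higher for ZNF223 and at least 10.4-fold higher for ZNF404. ZNF418 has been described as a repressor of MAPK signaling. The counts behind these smaller values were low, and ZNF223, at 1.14% (0.699% to 1.76%), was just inside the limit of 1%.

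The other 6 returned members had from 1 to 8 UMIs in mock-treated cells. ZNF549 had 8 UMIs before and 119 after DAC, a ratio of 12.6 (6.18 to 29.8), and reached 6.17% of DAC-treated cells. ZNF773 had 2 and 83 UMIs, a ratio of 35.1 (9.41 to 294), and reached 4.51%. ZNF671 had 1 and 57 UMIs, a ratio of 48.2 (8.31 to 1936), and reached 3.03%. The wide intervals came from the few mock-treated UMIs. ZNF154 had 5 and 40 UMIs, a ratio of 6.76 (2.67 to 22.0), and its log2 ratio of 2.76 became 1.73, below the limit, when per-cell CPM was averaged. ZNF471 had 1 and 24 UMIs, a ratio of 20.3 (3.31 to 834), and it no longer met the rule without cells over 20% mitochondrial UMIs. ZNF233 had 7 and 36 UMIs, a ratio of 4.35 (1.91 to 11.6), the ratio nearest to the limit of 4. On the log2 scale this was 2.12, which became 1.94 with median-of-ratios scaling and 0.62 when per-cell CPM was averaged, both below the limit, and 3.96 without cells over 20% mitochondrial UMIs. On the other side of the limit of 1% of mock-treated cells, ZNF550 was the low member nearest to it, with 26 UMIs in 1.402% of cells before and 167 UMIs in 7.77% of cells after DAC, a ratio of 5.43 (3.58 to 8.55). Its log2 ratio of 2.44 became 3.30 when per-cell CPM was averaged and 3.14 after drawing 10000 UMIs per cell.

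**Figure D2:**
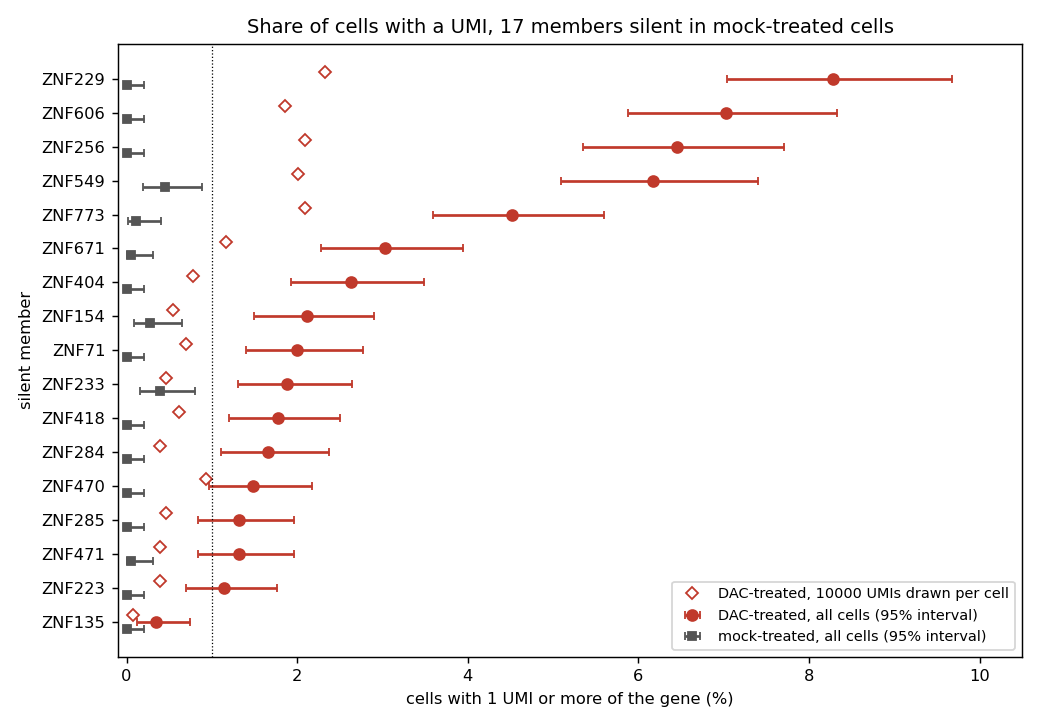
Share of cells with 1 UMI or more of each silent member, for mock-treated cells (squares) and DAC-treated cells (circles) with exact 95% intervals, and for DAC-treated cells after drawing 10000 UMIs per cell (diamonds). The dotted line marks 1%. ZNF229 is highest at 8.28%, ZNF135 is below the line at 0.343%, and the diamonds of 6 members stay above the line.

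The shares moved with depth. When 10000 UMIs were drawn per cell, 395 mock-treated cells and 458 DAC-treated cells were too shallow and were left out. ZNF229 was then found in 2.32% of the DAC-treated cells kept, while its mock-treated share stayed at 0. Of the 16 returned members, 6 were then still in 1% or more of DAC-treated cells, namely ZNF229, ZNF256, ZNF773, ZNF549, ZNF606, and ZNF671. For the other 10 the shares at this depth lay under 1%, down to 0.387%, and those shares rest on a handful of UMIs. Few molecules were counted per cell at full depth too. No DAC-treated cell had more than 3 UMIs of a given returned member for 14 of the 16, while ZNF549 reached 4 UMIs and ZNF256 reached 6 UMIs in a cell. If the UMIs of ZNF229 had been spread over DAC-treated cells in proportion to their depth, 169.9 cells would have had 1 or more, and 145 had. For ZNF606 these numbers were 134 and 123, and for ZNF256 they were 125 and 113.

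The return was next read against other zinc finger genes, since the share over all genes mixes many kinds. For these groups a zinc finger name means ZNF and a number, with or without a letter after it. Zinc finger genes under other names therefore fall among the genes without such a name. Among zinc finger genes of chromosome 19 outside both clusters, 43 of 72 silent genes returned (59.7%). Among those of other chromosomes, 17 of 41 returned (41.5%). Other genes of chromosome 19, outside the clusters and without a zinc finger name, returned in 110 of 592 cases (18.6%). Inside the spans of the clusters, 7 of 26 silent genes without a zinc finger name returned (26.9%). The spans also held 14 more genes with a zinc finger name that are not members, and of these 2 were silent. ZNF772 returned, with 3 UMIs before and 114 UMIs after DAC, the latter in 5.71% of cells, and ZNF835 did not, with 0 and 2 UMIs. The members were thus at the high end of an order that ran from zinc finger genes of chromosome 19 through those of other chromosomes and the other genes of the spans to all genes, but the groups hold few genes, and they were named with results of these libraries known.

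**Figure D3:**
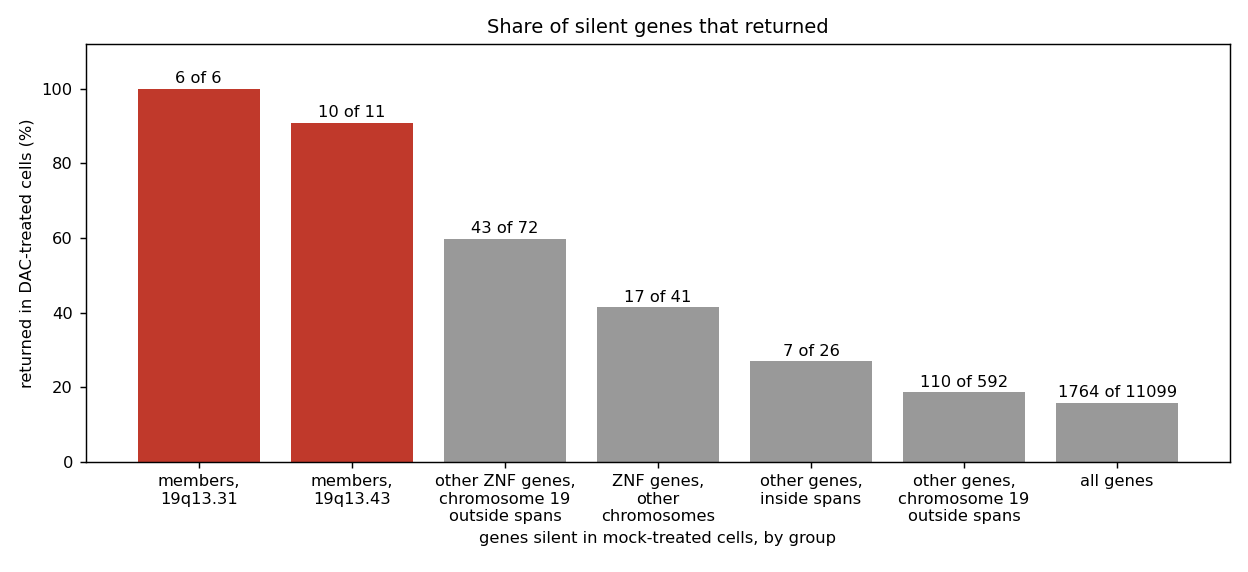
Share of genes silent in mock-treated cells that returned in DAC-treated cells (%), by group of genes, with the counts above each bar. The bars fall from 6 of 6 and 10 of 11 members to 43 of 72 other zinc finger genes of chromosome 19, 17 of 41 on other chromosomes, 7 of 26 other genes inside the spans, 110 of 592 other genes of chromosome 19, and 1764 of 11099 genes in all. Zinc finger genes are here those named ZNF and a number, and other genes are all the rest.

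Members with transcripts before treatment were also higher after DAC. All 12 low members had a CPM ratio above 1, against 55.2% of all low genes, and each interval excluded 1. Of these members, 10 of 12 had a ratio of 2 or more, against 22% of all low genes. The median log2 ratio of the low members was 1.29, against 0.14 over 2831 low genes. The highest ratio was that of ZNF550 and the lowest was that of ZNF776, with 89 UMIs in the mock-treated and 206 in the DAC-treated library, a ratio of 1.96 (1.52 to 2.54). ZNF419, with 53 and 216 UMIs, had a ratio of 3.44 (2.54 to 4.74), or 1.78 on the log2 scale, which became 0.96, below 2-fold, when per-cell CPM was averaged. ZNF221, with 45 and 178 UMIs, had a ratio of 3.34 (2.40 to 4.75). The remaining 8 low members, ZNF155, ZNF230, ZNF235, ZNF112, ZNF416, ZNF586, ZNF417, and ZNF329, had ratios between those of ZNF776 and ZNF221. ZNF235 and ZNF776 were below 2-fold by library totals, and ZNF586, ZNF417, and ZNF329 also fell below it with median-of-ratios scaling, at log2 ratios of 0.92, 0.86, and 0.84.

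The 16 active members changed less. All 16 had a CPM ratio above 1, against 59.7% of all active genes, and 4 of 16 had a ratio of 2 or more, against 9.26%. The median log2 ratio was 0.56, and that of 11499 active genes was 0.16. ZNF814 had the highest ratio, with 2.004 CPM in mock-treated and 6.67 CPM in DAC-treated cells, a ratio of 3.33 (2.67 to 4.19). It was followed by ZNF283, which rose from 3.27 to 7.52 CPM, a ratio of 2.30 (1.92 to 2.77), and by ZNF551, from 4.91 to 11.2 CPM, a ratio of 2.29 (1.98 to 2.66). ZNF234 went from 1.94 to 4.18 CPM, a ratio of 2.15 (1.70 to 2.75), which was below 2-fold with median-of-ratios scaling (log2 0.92) and after thinning (log2 0.70). ZNF45 went from 3.09 to 5.44 CPM, a ratio of 1.76 (1.45 to 2.15). The intervals of ZNF283, ZNF551, and ZNF234 overlap, so their order is not resolved.

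At the low end, ZNF543 had 2.80 CPM in mock-treated and 3.03 CPM in DAC-treated cells, a ratio of 1.08 (0.862 to 1.36). ZNF180, the neighbor of ZNF229, had 3.97 and 4.66 CPM, a ratio of 1.17 (0.974 to 1.42). For these 2 genes the interval included 1. For ZNF225, ZNF227, and ZNF552 the lower limits of the ratio, from 1.08 to 1.10, lay below the factor of 1.14 of median-of-ratios scaling. On the log2 scale, the interval of ZNF224 ran from -0.02 to 0.44 and that of ZNF225 from -0.06 to 0.80 without cells over 20% mitochondrial UMIs. After thinning, the intervals of ZNF225, ZNF227, ZNF234, and ZNF552 included 0. ZNF227 had a ratio of 1.26 (1.09 to 1.46). ZNF224, a KRAB repressor known to act on the aldolase A gene, had 8.52 and 11.1 CPM, a ratio of 1.31 (1.16 to 1.48), and ZNF552 had 4.05 and 5.32 CPM, a ratio of 1.31 (1.10 to 1.58). The most detected member, ZNF544, was found in 38.0% of mock-treated and 49.1% of DAC-treated cells, with a ratio of 1.39 (1.28 to 1.502). ZNF274, which is known to bind within zinc finger genes and to recruit TRIM28 and SETDB1 there, had 8.01 and 13.7 CPM, a ratio of 1.71 (1.51 to 1.93), and up to 21 UMIs in a DAC-treated cell. The other active members, ZNF587, ZNF222, ZNF225, and ZNF226, had ratios from 1.32 to 1.64.

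**Figure D4:**
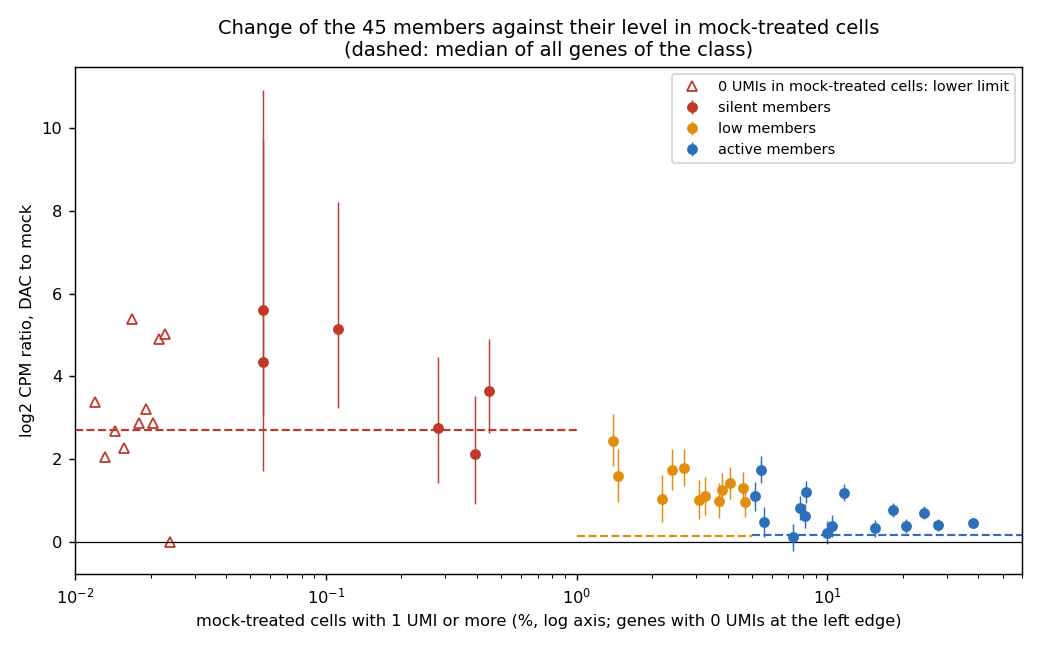
log2 CPM ratio of DAC to mock for the 45 members, with 95% intervals, against the percent of mock-treated cells with a UMI on a log axis. Triangles at the left are members with 0 UMIs in mock-treated cells, spread sideways for legibility, at the lower limit of the exact interval of the ratio. Dashed lines are the medians of all genes of each class, 2.70, 0.14, and 0.16, and all 12 low members lie above theirs.

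Over both clusters, 44 members had 20 UMIs or more in the libraries together, all but ZNF135. All 44 had a ratio above 1, against 64.1% of 17368 genes. Of these, 30 had a ratio of 2 or more, against 22.8%, and 0 had a ratio of 0.5 or less, against 7.86%. Related groups of genes fell on either side of this background, beside 68.2% of the members. A ratio of 2 or more was found for 4 of 13 other genes named ZNF inside the spans (30.8%). It was found for 10 of 15 genes under other names there (66.7%), which can include zinc finger genes not named ZNF. Outside the spans it was found for 77 of 160 zinc finger genes of chromosome 19 (48.1%) and for 15.3% of those on other chromosomes. The count of 30 includes 16 silent members, against 75% of all silent genes with that minimum, which reached the minimum of 20 UMIs only through the DAC-treated library. All 45 members were higher by library totals, ZNF135 with its count of 0 set to 3. Scaling by the median ratio of 11152 well-detected genes, which was 1.14 or 0.18 on the log2 scale, left 44 members higher and ZNF543 lower. In neither cluster was a member with 20 UMIs or more lower by library totals, while of the 13 other zinc finger genes of the spans that reached this minimum, ZNF460 and ZNF749 were lower.

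Cells with a returned member were then counted. At least 1 of the 16 returned members was found in 586 of 1751 DAC-treated cells, or 33.5% (31.3% to 35.7%), and in 24 of 1783 mock-treated cells, or 1.35% (0.864% to 1.996%). Because these 16 genes were chosen by their counts in the same cells, the difference between libraries is a description. The share depended on depth. With DAC-treated cells divided into 3 equal groups by total UMIs, it was 11.1% in the shallowest, 38.2% in the middle, and 51.1% in the deepest group, whereas for mock-treated cells these shares were 1.18%, 1.01%, and 1.85%. With 10000 UMIs drawn per cell, the share was 15.3% of DAC-treated cells. At full depth, 5.31% of DAC-treated cells had 2 UMIs or more of the same returned member, and 0.685% had 3 or more.

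Returned members were found together in the same cells. A total of 223 DAC-treated cells (12.7%) had 2 or more of them, 78 cells had 3 or more, and 1 cell had 7, while no mock-treated cell had more than 1. To account for depth, DAC-treated cells were divided into 10 groups of like total UMIs, and the number expected was computed as if the genes were detected independently within each group. On this basis 199 cells with 2 or more and 41.7 cells with 3 or more were expected. In mock-treated cells only 0.167 cells with 2 or more were expected, so the absence of such cells there says nothing about co-detection. Counted as pairs of genes in the same cell, 510 pairs were observed and 305 were expected, a ratio of 1.67 (1.53 to 1.82). The interval treats pairs as independent, which pairs of 1 cell are not, so it is too narrow. All 16 returned members had more pairs than expected, from 1.23 times for ZNF233 to 2.15 times for ZNF285.

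Pairs exceeded the expected number both within and between the clusters, with intervals that overlapped. Within a cluster, 268 pairs were observed and 157 were expected, a ratio of 1.71 (1.51 to 1.93). Between 19q13.31 and 19q13.43, 242 were observed and 149 were expected, a ratio of 1.63 (1.43 to 1.85). The most frequent pair was ZNF229 with ZNF256, one from each cluster, in 23 cells against 12.8 expected. ZNF229 and ZNF606 were together in 22 cells against 14.5 expected, ZNF229 and ZNF549 in 21 against 12.2, and ZNF256 and ZNF606, neighbors in a run, in 21 against 10.6. Of 120 possible pairs, 111 were seen in at least 1 cell. Of the cells with ZNF229, 59.3% (50.8% to 67.4%) had another returned member.

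The members with transcripts before treatment had ratios nearer to 1. In DAC-treated cells, 1566 pairs of low members were observed against 1277 expected, a ratio of 1.23 (1.17 to 1.29), and for active members the ratio was 1.06 (1.04 to 1.08). In mock-treated cells the ratios were 1.14 (0.983 to 1.31) for low and 1.03 (1.01 to 1.06) for active members. A gene found in many cells cannot reach a high ratio, so the active members, each in 9.02% or more of DAC-treated cells, are limited in this comparison. Without cells under 10000 UMIs or over 50% mitochondrial UMIs the ratio for returned members was 1.68, and without cells over 20% mitochondrial UMIs it was 1.78. Without the 5% of cells with the most UMIs, among which doublets would be found, it was 1.70. With 10000 UMIs drawn per cell it was 1.54 (1.01 to 2.24), on 27 pairs. Without depth groups it was 2.31, so part of the raw co-detection went with depth.

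**Figure D5:**
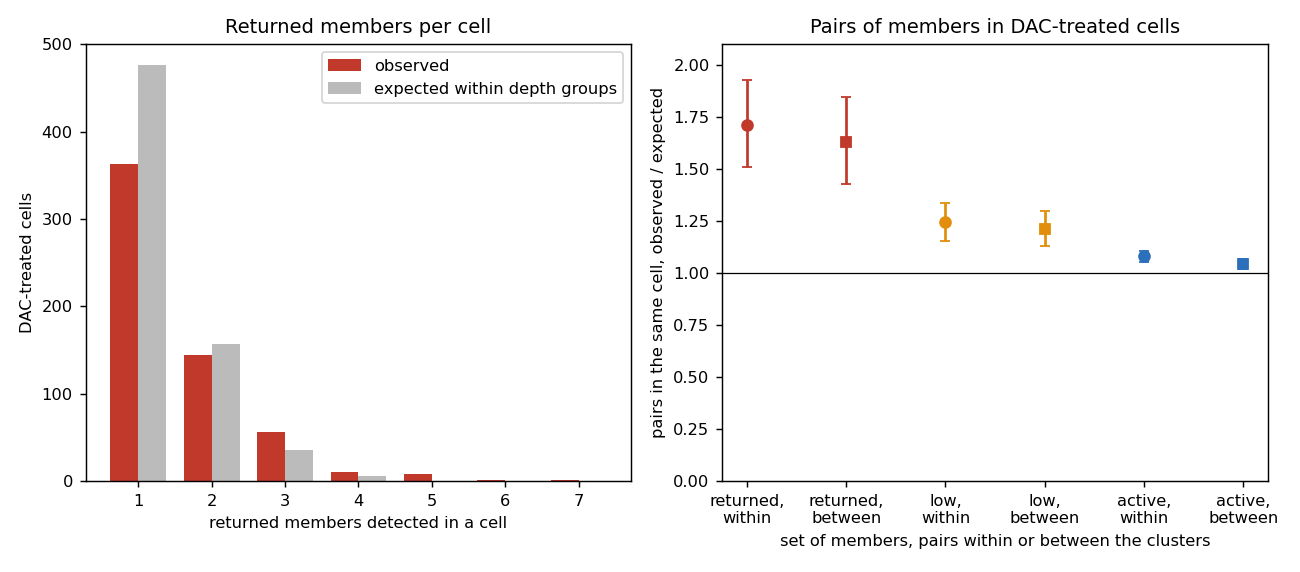
Left, number of DAC-treated cells by the number of returned members detected in the cell, observed (red) and expected from independent detection within 10 depth groups (gray). Right, pairs of members in the same DAC-treated cell, observed over expected, for returned, low, and active members within a cluster (circles) and between clusters (squares), with 95% intervals. Fewer cells than expected had exactly 1 returned member and more had 3 or more, and the ratios fall from 1.71 and 1.63 for returned members to 1.08 and 1.04 for active members.

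The same cells had more UMIs of other returned genes. Outside the members, 1748 genes that were silent in mock-treated cells met the rule, with a median sum of 4804 CPM per DAC-treated cell and 84.6 CPM per mock-treated cell. In each of the 8 depth groups with 20 or more DAC-treated cells that had a returned member, the median sum of these genes was higher in cells with a returned member than in cells without, by 1.02 to 1.34 times. Cells of 1 library are not replicates, and this was not tested.

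Genes through which KRAB zinc finger proteins act were measured beside them. Of 21 genes for corepressors and heterochromatin, 14 (66.7%) had a CPM ratio above 1, near the 64.1% of all genes. A ratio of 2 or more was found for 3 (14.3%, against 22.8% of all genes and 9.26% of active genes), namely CBX1 at 2.35, which encodes a heterochromatin protein 1, MORC2 at 2.16, a partner of the HUSH silencing complex, and SUV39H1 at 2.06, a histone H3 lysine methyltransferase. TRIM28 went from 156 to 239 CPM, a ratio of 1.53, and SETDB1 from 11.5 to 10.1 CPM, a ratio of 0.882. Of 10 genes of the DNA methylation machinery, UHRF1 had a ratio of 2.72 and DNMT1 one of 1.88, and the other 8 had ratios between 0.652 and 1.58. None of these genes was silent in mock-treated cells.

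Similar sequences limited the attribution of some UMIs. In a search of the last 500 bases of each member against annotated transcripts, 8 members had a stretch of 90 bases or more with 98% identity or more to another gene. ZNF773, which returned, matched ZNF419, a low member, over 229 bases at 99.1% identity, so reads of ZNF773 and ZNF419 differ at few bases there, and their counts are uncertain to that extent. ZNF417 and ZNF587 matched over 500 bases at 98.2%, and ZNF155 matched ZNF222 over 128 bases at 98.4%. Of the 17 silent members, 7 overlapped exons of another annotated gene on the same strand, namely ZNF404, ZNF223, ZNF284, ZNF285, ZNF229, ZNF71, and ZNF773. For these the molecules of both genes cannot be told apart where the exons overlap. The gene that overlaps ZNF229 was not among the genes counted, so its molecules there could have been counted as ZNF229. ZNF256 and ZNF606, also returned, had neither a matching 3′ end nor an overlap on the same strand.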

How the data were processed

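HCT116 cells, mock-treated or treated with DAC, were analyzed by scRNA-seq with 1 library each. Per the submitters' processing notes, Cell Ranger and hg38 were used. The authors deposited raw UMI counts for each gene in each cell, with no stated filter on cells, so shallow cells lower the shares of cells with a UMI. The counts were matched by Ensembl identifier, since 24 gene names were repeated. All deposited cells were used, and doublets were not called, since doublets of 1 cell line carry no marker. Positions came from GENCODE release 44.

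UMIs were summed over a library and scaled to its total (CPM). Shares had Clopper-Pearson, sums Poisson, and ratios conditional binomial intervals at the 95% level. A count of 0 was set to a floor of 3 counts over the library. A fold given as at least a value is the lower limit of the conditional binomial interval with 0 mock-treated UMIs, which does not use this floor. Genes needed 20 UMIs or more over both libraries for 2-fold counts and medians. Shared 3′ ends were searched using blastn 2.17.0. Python 3.11.15, numpy 2.4.6, scipy 1.17.1, pandas 2.3.3, and matplotlib 3.10.9 were used, and the computations were tested on simulated data. Named in full were ZNF229, every returned member, and the active members at both ends of the CPM ratio, 5 at each. Other genes named were those of the fixed lists and other zinc finger genes of the spans that returned. Other members could be named too, and the values of ZNF550, ZNF776, ZNF419, ZNF221, ZNF544, and ZNF274, like those of ZNF835, ZNF460, and ZNF749, were chosen after they were seen. The members and lists were chosen with earlier results of these data known.

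Alternatives were leaving out cells by depth, mitochondrial UMIs, or shared barcodes, thinning to 10000 UMIs per cell, other thresholds, other scaling, and leaving out members with matching 3′ ends. The last and the shared barcodes were chosen after seeing the data. A planned comparison of protein sequences was replaced by the 3′ ends, because protein sequences were not used here.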

Additional observations from a re-analysis of the deposited data

How the results depend on the processing

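By library totals and all cells, 16 silent members returned. Under the alternatives the number was 12 to 17, except that thinning to 10000 UMIs per cell gave 8 of 23 members then under 1% of mock-treated cells. Of these 8, 6 were among the 16, and ZNF155 and ZNF550 were low members at full depth. ZNF233 was lost with median-of-ratios scaling, ZNF233 and ZNF154 when per-cell CPM was averaged, and ZNF471 without cells over 20% mitochondrial UMIs. The number of members at 2-fold or more was 20 to 30 and fell to 18 with a minimum of 100 UMIs, which removes genes from the test. DAC-treated cells in which a returned member was found made up 33.5%. This share was 45.2% without cells under 10000 UMIs or over 50% mitochondrial UMIs, 15.3% after thinning, and 5.31% and 0.685% when 2 or 3 UMIs were required. The ratio of observed to expected pairs, 1.67, was 2.31 without depth groups.

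Medians of low and active members stayed above 0 under the alternatives run, whereas the sign for silent members was fixed by their choice and says nothing about stability. The median over all members, 1.37, was 1.26 without cells under 10000 UMIs or over 50% mitochondrial UMIs, 1.24 without cells over 20% mitochondrial UMIs, 1.13 after thinning, 1.58 without members with a matching 3′ end, 1.18 with median-of-ratios scaling, 1.61 with the mean of per-cell CPM, 1.31 with a minimum of 1 UMI, and 1.07 with a minimum of 100 UMIs. The median of silent members rests largely on the floor, since 10 of 16 had 0 UMIs in mock-treated cells. It was 3.61, and it was 4.44 without cells over 20% mitochondrial UMIs and 5.27 with a minimum of 100 UMIs. The median of low members, 1.29, was 1.11 with median-of-ratios scaling and 1.61 when per-cell CPM was averaged. The median of active members, 0.56, was 0.66 without the 5% of cells with the most UMIs, 0.65 after thinning, 0.37 with median-of-ratios scaling, and 0.76 when per-cell CPM was averaged. The causes of these shifts were not tested.

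Of 325 values of single members under an alternative, 288 moved by less than the counting error, 36 moved by more, and 1 changed sign, namely ZNF543, whose log2 ratio was -0.072 with median-of-ratios scaling. The 325 include 36 values from leaving out members with a matching 3′ end. That alternative leaves the ratios of the other members as they were, so these values could not move. Leaving out shared barcodes kept 1771 of 1783 mock-treated and 1739 of 1751 DAC-treated cells. Members with too few UMIs under an alternative gave no value, and after thinning 33 members had one, against 44 by library totals. The count of 288 is therefore no measure of stability. Leaving out members with similar proteins was not run. Leaving out a replicate was not possible with 1 library per condition. No paired analysis was possible because each condition had 1 library.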
